A study of Mus musculus with 6 samples.

Results

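The cytosolic glutathione S-transferases described here are 10 genes of the alpha, mu, pi, omega, kappa, theta and zeta classes, taken by gene symbol. They are Gsta3, Gsta4, Gstm1, Gstm2, Gstm4, Gstp1, Gsto1, Gstk1, Gstt2 and Gstz1, and each of the 10 symbols was found among the 40213 genes of the deposited count files. The RNA came from mouse bone marrow-derived macrophages, which are bone marrow cells of C57BL/6 mice matured in culture with macrophage colony-stimulating factor. In the MNP group (n = 3) the macrophages were given 50 µg of polystyrene micro- and nanoplastics for 24 h, and the control group (n = 3) had the same culture without particles. The labels give neither the particle size nor the volume. They also leave the origin of the replicates unstated, so each p-value reflects the spread among these 6 samples alone, and that spread may be technical. The title of the series places the comparison in glutathione metabolism.

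Glutathione S-transferases join the tripeptide glutathione to reactive, electrophilic molecules, which makes these easier to export and break down. The alpha, mu and pi classes are the main conjugating enzymes of the cytosol, and many of their genes are targets of NRF2, a transcription factor released from its inhibitor KEAP1 when cells meet electrophiles or oxidants. NRF2 pairs with a small MAF protein and binds the antioxidant response element. Classes differ in role: omega enzymes act as thiol transferases and reduce dehydroascorbate, the zeta enzyme is the maleylacetoacetate isomerase of tyrosine breakdown, and the kappa enzyme is found in mitochondria and peroxisomes, so that "cytosolic" does not hold for Gstk1.

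The promoter sequences of 2 of the genes that rose are shown because each holds a match to a motif of the antioxidant response element type, and that of Gstm1, the most abundant member, is shown beside them because it holds none. The windows run from 250 bases before to 50 bases after the RefSeq start and are read 5′ to 3′ on the gene's strand, on build GRCm38.p6, which is older than the build GRCm39 of the submitters' processing notes. Capitals mark the matches. Gsta3 is at chr1:21240335-21240634 on the plus strand, Gstp1 at chr19:4037863-4038162 on the minus strand, and the window of Gstm1 at chr3:108017769-108018068 on the minus strand.
Gsta3: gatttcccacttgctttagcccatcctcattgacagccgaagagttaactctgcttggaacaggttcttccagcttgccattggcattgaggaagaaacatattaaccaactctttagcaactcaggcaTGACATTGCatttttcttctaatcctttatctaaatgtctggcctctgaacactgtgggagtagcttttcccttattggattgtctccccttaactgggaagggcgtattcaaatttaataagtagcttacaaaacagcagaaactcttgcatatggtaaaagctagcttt
Gstp1: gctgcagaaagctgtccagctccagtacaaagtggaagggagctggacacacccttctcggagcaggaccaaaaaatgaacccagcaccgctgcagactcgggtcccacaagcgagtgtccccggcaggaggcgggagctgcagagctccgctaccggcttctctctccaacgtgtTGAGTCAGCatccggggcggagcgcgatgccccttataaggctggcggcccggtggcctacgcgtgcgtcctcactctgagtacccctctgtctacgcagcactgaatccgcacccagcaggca
Gstm1: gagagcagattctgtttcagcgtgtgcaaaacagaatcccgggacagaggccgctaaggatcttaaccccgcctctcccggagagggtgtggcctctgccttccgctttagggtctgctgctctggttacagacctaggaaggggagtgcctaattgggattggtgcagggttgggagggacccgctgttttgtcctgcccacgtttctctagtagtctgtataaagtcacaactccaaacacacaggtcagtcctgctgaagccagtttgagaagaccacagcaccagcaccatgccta
The search covered both strands for TGACNNNGC and for TGANTCAGC, and 1 sequence can meet both. Gsta3 held TGACATTGC, whose first base lies at -121 from the start, and Gstp1 held TGAGTCAGC, whose first base lies at -74. RefSeq windows were matched for 8 of the 10 members, 11 windows in all, and of these 8 genes 1 held TGACNNNGC and 1 held TGANTCAGC. Among all 27025 genes with such windows, 14% held TGACNNNGC and 1.37% held TGANTCAGC (12.4% and 1.19% of 32851 windows), so a match to the first of these is common. The windows of Gstm2, Gstm4, Gsto1, Gstk1 and Gstz1 held neither, as did the other window of Gstm1. No window was matched for Gsta4 and Gstt2.

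Of the 10 transferases, 5 rose in MNP macrophages (Gsta3, Gsta4, Gstm1, Gstp1 and Gsto1), 0 fell, and 5 did not pass (Gstm2, Gstm4, Gstk1, Gstt2 and Gstz1). Gsta3 was 20.02-fold higher, Gstm1 2.36-fold, Gstp1 2.18-fold and Gsto1 1.41-fold, and Gsta4 was at a low level in MNP samples and at 1 or 2 counts in each control. A gene passed at a Benjamini-Hochberg adjusted p under 0.05 in edgeR's quasi-likelihood test, adjusted over all 12893 genes tested, of which 17.5% passed, 9.11% as higher and 8.35% as lower. No member fell at an unadjusted p under 0.05 (0 of 10), nor with DESeq2 or limma-voom (0 each). Levels are scaled CPM, in which each library's counts are set to a common total with TMM factors. Library totals were 21283713 to 22700499 counts in MNP and 20262859 to 23042146 counts in control samples, with 18240 to 18672 genes detected in MNP and 20222 to 24062 in control samples. The members' log2 fold changes had a median of 0.63, and those of all genes tested a median of -0.01. All 10 members entered the test, but Gsta4 cleared the filter on low counts in MNP libraries alone (0 of 3 control libraries reached it) and so had to differ. Of the other 9 members, 4 rose. The members were chosen with earlier results of these data known, so the shares of all genes are no independent yardstick for them.

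**Figure D1:**
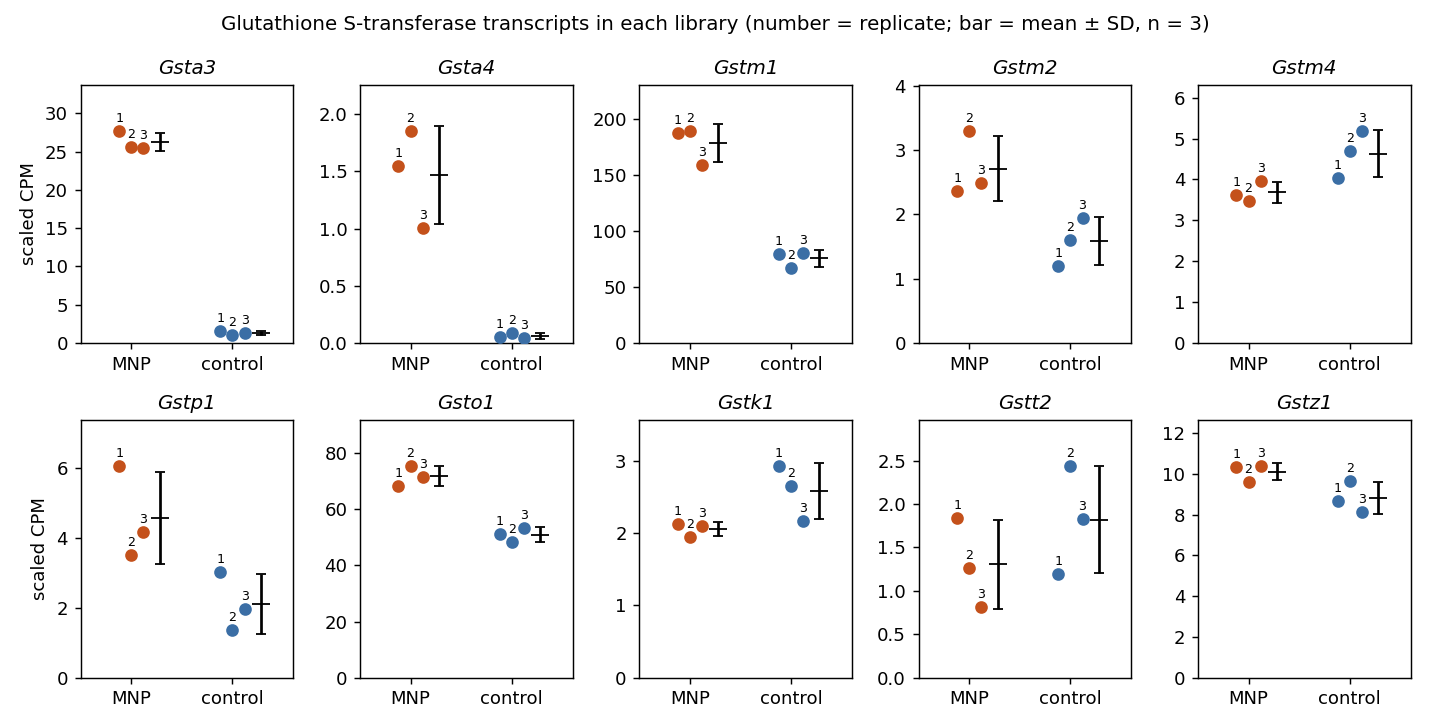
Scaled CPM (y axes, each from 0) of the 10 transferases in the 3 MNP libraries and the 3 control libraries. Points are libraries numbered by replicate and bars are mean ± SD. Gsta3 lay between 25.5 and 27.6 CPM in MNP and between 1.04 and 1.53 CPM in control libraries, while the points of Gstt2 and Gstz1 overlapped between the groups.

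The alpha class showed the largest changes of the family. Gsta3, which in mice detoxifies the epoxide of aflatoxin, had 27.6, 25.7 and 25.5 CPM in MNP samples 1 to 3, against 1.53, 1.04 and 1.36 CPM in control samples 1 to 3. These are 533 to 572 counts in MNP and 24 to 32 counts in control libraries, so the gene was low but detected in each control. Every MNP sample stood far above every control, and the replicates within each group were close. The log2 fold change was 4.32 ± 0.15 (SE, edgeR adjusted p = 7.94e-10), rank 4 among the increases of the 12893 genes. Gsta4, known for conjugating the lipid peroxidation product 4-hydroxynonenal, had 1.55, 1.85 and 1.00 CPM in MNP samples, against 0.0479, 0.0870 and 0.0424 CPM in controls. Those control values are 1, 2 and 1 counts, and the MNP values 32, 41 and 21 counts, so the groups were apart but the size of the change is poorly fixed. Summed over libraries, 94 counts in MNP and 4 counts in controls give a ratio of 24.8, with an exact 95% interval of 9.39 to 93.1 that covers counting error only. The fitted log2 fold change was 4.50 ± 0.61 (edgeR adjusted p = 0.000159). Gsta4 entered the test through MNP libraries alone, so this p-value is no support for a rise.

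The other alpha genes were close to the counting limit and were not tested. Gsta1 had 12, 11 and 6 counts in MNP libraries and 0, 2 and 0 in control libraries, a ratio of 15.3 with a counting interval of 3.88 to 133. Gsta2 had 4, 1 and 4 counts in MNP libraries and 0 in each control library. Its ratio is 3.17 if the control group is set to a floor of 3 counts. That value is not a lower bound, since the exact 95% counting interval of the ratio begins at 2.09. Both lay in the direction of Gsta3 and Gsta4. Gsta5, with 0 counts in each MNP library, had 3 counts in control library 1 and 0 in the other controls. Gsta3 made up 91.5% to 94.5% of the scaled counts of the 5 alpha genes in MNP samples and 85.7% to 97.0% in controls. Of the stretches of 31 bases in its main transcript, 1.05% also occur in transcripts of other genes (GENCODE M21), most of them shared with Gsta1 and Gsta2.

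Among the mu enzymes, Gstm1 rose and its tested neighbours did not pass. Gstm1, a major conjugating enzyme of mouse liver, had 188, 189 and 159 CPM in MNP samples and 79.3, 66.6 and 80.8 CPM in controls. The lowest MNP sample, replicate 3, was still well above the highest control. The log2 fold change was 1.24 ± 0.08 (SE, edgeR adjusted p = 2.77e-07). Gstm2 had 2.37, 3.29 and 2.48 CPM in MNP samples and 1.20, 1.61 and 1.95 CPM in controls. Its groups did not overlap, yet its log2 difference of 0.77 (95% interval 0.12 to 1.42) did not pass (edgeR adjusted p = 0.0978). Gstm4 had 3.63, 3.47 and 3.97 CPM in MNP samples and 4.03, 4.70 and 5.17 CPM in controls. Each MNP value lay below each control value, but the log2 difference of -0.33 (-0.75 to 0.09) did not pass either (adjusted p = 0.278). Groups without overlap are common here, with 17.2% of all tested genes entirely higher and 17.4% entirely lower in MNP. Among the members, 6 were entirely higher and 2 entirely lower, so a gap between the groups alone says little about a single member.

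The mu genes form a cluster on chromosome 3, in the order Gstm5, Gstm7, Gstm6, Gstm3, Gstm2, Gstm1 and Gstm4 in RefSeq. Gstm5, at the opposite end from Gstm4, averaged 1.77 ± 0.88 CPM in MNP and 3.19 ± 1.18 CPM in controls (log2 -0.85 ± 0.38 SE, edgeR adjusted p = 0.150). Counts taken within each library need no scaling. There were 51.8, 54.5 and 40.1 Gstm1 counts per Gstm4 count in MNP libraries and 19.7, 14.2 and 15.6 in control libraries. The groups did not overlap, and the two-sided exact permutation p was 0.10, the smallest that 3 against 3 libraries allow (0.125 adjusted over 5 such ratios). The ratio of Gstm1 to Gstm2 overlapped, at 57.4 to 79.2 in MNP and 41.4 to 66.2 in control libraries (exact permutation p = 0.30). Both ratios were chosen after the values were seen. Since this test cannot give a p under 0.10 here, a difference was shown for neither pair. Copies in the genome limit the mu counts. Of the 31-base stretches of Gstm1, 34.3% occur in other genes' transcripts, most of them in the pseudogene Gstm2-ps1 (26.9%) and in Gstm3 (15.5%), and the share was 14.8% at 75 bases. Gstm3 itself had 0 to 5 counts per library, and the symbol Gstm2-ps1 was not found in the deposited counts. Of the 31-base stretches of Gstm2, 19.5% occur in other genes' transcripts, 3.77% in those of Gstm1.

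Gstp1, the pi class enzyme, rose with a wide spread between libraries. It had 6.04, 3.52 and 4.16 CPM in MNP samples and 3.02, 1.35 and 1.95 CPM in controls. MNP sample 1 and control 1 were the highest of their groups, and the lowest MNP value was above the highest control. The log2 fold change was 1.12 ± 0.31 (SE, edgeR adjusted p = 0.0227). The call did not last when single libraries were left out: the adjusted p was 0.0934 without MNP sample 1, 0.0572 without MNP sample 3, 0.0882 without control 2 and 0.0620 without control 3, with log2 fold changes from 0.88 to 1.19. It passed without MNP sample 2 (adjusted p = 0.0305) and without control 1 (0.00352). Gstp1 is also the member with the most shared sequence. Of its 31-base stretches 67.5% occur in other genes, 67.5% in Gstp2 and 51.7% in the pseudogene Gstp-ps. Gstp2 had 0 counts in each MNP library and 3, 2 and 0 in controls, so nearly all pi counts were assigned to Gstp1 and Gstp-ps.

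The pseudogene Gstp-ps had 88, 52 and 60 counts in MNP libraries and 75, 45 and 47 counts in control libraries. It was highest in the same libraries as Gstp1, MNP 1 and control 1. Its own difference was small (log2 0.33 ± 0.31 SE, edgeR adjusted p = 0.524). The ratio of Gstp1 to Gstp-ps counts was 1.42, 1.5 and 1.45 in MNP libraries and 0.840, 0.689 and 0.979 in control libraries. This ratio, chosen after the values were seen, spread little within MNP libraries and did not overlap between the groups (exact permutation p = 0.10, the smallest possible, 0.125 adjusted over 5 ratios). Since the counting could split reads between the copies, the counts of both are uncertain.

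Gsto1, the omega class thiol transferase, was the second most abundant member and rose by less. It had 68.2, 75.3 and 71.5 CPM in MNP samples, against 51.3, 48.3 and 53.4 CPM in controls. Its replicates were tight and the groups were well apart (log2 fold change 0.49 ± 0.07 SE, edgeR adjusted p = 0.000250). The principal transcript of Gsto1 shares no stretch of 31 bases with another gene's transcripts in GENCODE M21. The annotation behind the deposited counts is not given, so shared reads were not measured directly. There were 2.75, 2.51 and 2.22 Gstm1 counts per Gsto1 count in MNP libraries and 1.55, 1.38 and 1.51 in control libraries, without overlap (exact permutation p = 0.10, the smallest possible). The second omega gene, Gsto2, was near the counting limit at 0.0929 ± 0.0805 CPM in MNP and 0.117 ± 0.125 CPM in controls.

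The kappa, theta and zeta genes did not pass. Gstz1, of tyrosine breakdown, had 10.3, 9.60 and 10.4 CPM in MNP samples and 8.68, 9.65 and 8.10 CPM in controls. MNP sample 2 fell within the control range, and the log2 difference was 0.20 (95% interval -0.07 to 0.47, edgeR adjusted p = 0.319). The interval leaves room for a rise of up to 1.38-fold. Some 9.1% of the exon bases of Gstz1 overlap Pomt2 on the opposite strand, which had 230 to 330 counts in MNP and 294 to 331 in control libraries, and without a stated strand setting their reads cannot be told apart there. Gstk1 had 2.13, 1.94 and 2.10 CPM in MNP samples and 2.92, 2.65 and 2.16 CPM in controls. Its MNP values lay just below the lowest control (log2 difference -0.32, -0.89 to 0.24, adjusted p = 0.446). Gstt2, a theta class enzyme, had 1.84, 1.26 and 0.812 CPM in MNP samples and 1.20, 2.43 and 1.82 CPM in controls. These overlapped widely (log2 difference -0.48, -1.35 to 0.38, adjusted p = 0.460), and with 17 to 38 counts in MNP and 25 to 56 counts in control libraries the interval is wide.

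**Figure D2:**
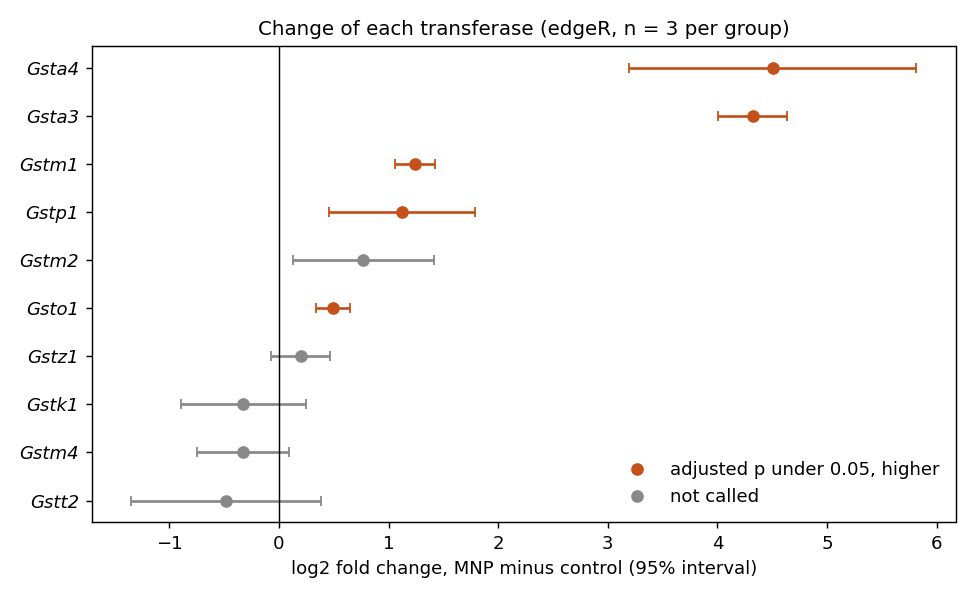
Log2 fold change, MNP minus control, of each transferase (x axis) with its 95% interval from edgeR, n = 3 per group. Orange marks the 5 members that passed as higher and grey the 5 that did not, and the interval of Gsta4 (3.19 to 5.81) is the widest because its control counts were 1 or 2.

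Per length of transcript, the 10 members were led by the same genes in both groups, and Gsta3 changed its place. Hpgds, of the sigma class and outside these 10 genes, was not ranked. Its scaled CPM, not set per length, was above that of Gstm1 (203 against 179 in MNP, 255 against 75.5 in controls). Levels between genes are compared here as scaled CPM per kilobase of the principal GENCODE M21 transcript. In MNP samples Gstm1 averaged 139 ± 13.1 CPM per kb, Gsto1 60.7 ± 2.99, Gsta3 18.0 ± 0.827, Gstz1 6.10 ± 0.262 and Gstp1 5.57 ± 1.598 CPM per kb. The remaining 5 lay between 0.578 CPM per kb for Gstt2 and 2.55 CPM per kb for Gstm2. In controls Gstm1 averaged 58.6 ± 6.06 CPM per kb, Gsto1 43.1 ± 2.17 and Gstz1 5.32 ± 0.474 CPM per kb. The other 7 control levels lay between 0.0605 CPM per kb for Gsta4 and 2.77 CPM per kb for Gstk1. Gsta3 had rank 3 of 10 in MNP samples and rank 8 in controls, at 0.900 ± 0.170 CPM per kb. Neighbours whose samples overlapped were, in MNP, Gstz1 with Gstp1, Gstm2 with Gstk1 and Gstk1 with Gstm4. In controls they were Gstk1 with Gstm4, Gstm4 with Gstp1, Gstp1 with Gstm2 and Gsta3 with Gstt2. With the union of all annotated exons as the length, Gsta3 had rank 3 in MNP samples and rank 9 in controls, and the order of the lower members changed.

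**Figure D3:**
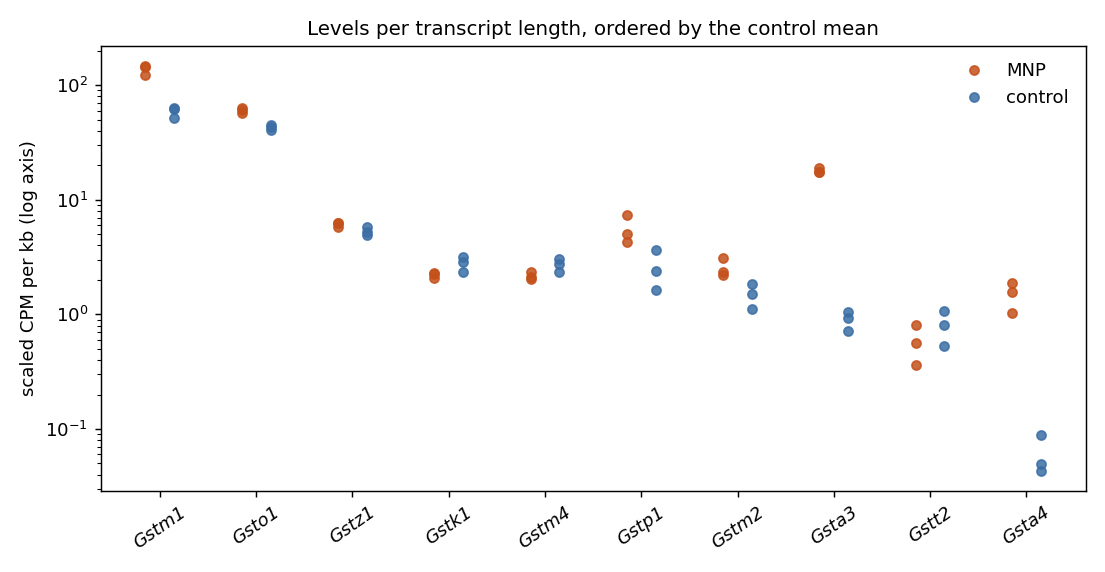
Scaled CPM per kilobase of transcript (log axis) of the 10 transferases, ordered along the x axis by their control mean. Points are single libraries, MNP left of control for each gene. Gstm1 and Gsto1 lead in both groups, and Gsta3 has rank 3 in MNP libraries but rank 8 in control libraries.

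Summed over the 10 members, without Hpgds, scaled CPM came to 302 ± 18.6 in MNP samples and 149 ± 9.75 in controls (SD, n = 3 each), a ratio of 2.02. Gstm1 made up most of the gain. It took 56.6% to 60.3% of the members' counts in MNP samples and 48.1% to 51.8% in controls. The share of Gsto1 was 21.9% to 25.5% in MNP samples and 33.5% to 34.9% in controls, and that of Gsta3 8.15% to 9.06% in MNP samples and 0.754% to 1.00% in controls. There were 0.147, 0.136 and 0.160 Gsta3 counts per Gstm1 count in MNP libraries and 0.0193, 0.0157 and 0.0168 in control libraries, without overlap (exact permutation p = 0.10, the smallest possible). These shares are of counts and so weigh longer transcripts more. In bulk samples, a change in the number of cells that express a gene and a change in RNA per cell cannot be told apart.

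The genes whose pattern over the 6 samples was most like that of Gsta4, the called member with the largest log2 fold change, were the quinone reductase Nqo1, the glutamate-cysteine ligase modifier Gclm and the cell cycle inhibitor Cdkn1c. Likeness was the root mean square difference of log2 CPM (prior count of 2) centred on the control mean, and was 0.44, 0.49 and 0.52 for these genes. Nqo1 averaged 21.2 ± 1.35 CPM in MNP and 2.35 ± 0.832 CPM in controls. The prior count shrinks the log2 values of Gsta4, whose controls had 1 or 2 counts, and the fitted log2 fold changes of these genes were smaller than its 4.50, at 3.19, 2.82 and 2.82. The ranking is therefore a description of values set in part by the prior count. For Gsta3, added after the values were seen, the closest were the uncharacterised gene Gm46353 (0.49), Gsta4 (0.73) and Nqo1 (0.78). Gm46353 averaged 1.87 ± 0.927 CPM in MNP samples and was at 0 in each control, so it was tested through MNP libraries alone and its likeness, too, depends on the prior count.

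Among transferases outside these 10 genes, 2 microsomal ones rose and Hpgds fell. Of the 19 other family and microsomal transferase genes in the files, 8 were tested, 2 rose and 1 fell, and the median of their log2 fold changes was 0.22. Among all tested genes 9.11% were higher and 8.35% lower, and so few calls do not describe the list as a whole. The microsomal transferase Mgst1 rose to 114 ± 7.87 CPM in MNP samples, against 50.6 ± 3.39 CPM in controls (2.25-fold, log2 1.17 ± 0.07 SE). Mgst2, at a far lower level, rose to 2.48 ± 0.0860 CPM in MNP samples, against 0.774 ± 0.109 CPM in controls (3.19-fold). Hpgds, the sigma class enzyme that makes prostaglandin D2, fell to 203 ± 7.72 CPM in MNP samples, against 255 ± 9.57 CPM in controls (log2 -0.33 ± 0.06 SE, edgeR adjusted p = 0.00106). Mgst3 averaged 23.9 ± 1.79 CPM in MNP and 19.7 ± 1.98 CPM in controls and did not pass (adjusted p = 0.0803). Gstcd (8.62 CPM in MNP, 7.67 CPM in controls), Gstt3 (1.92 CPM in MNP, 2.75 CPM in controls), Gstm5 and Gstp-ps did not pass either.

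The steps around conjugation are given by their counts, beside 9.11% higher and 8.35% lower among all tested genes. Differences between the lists were not tested. The lists were chosen with earlier results of these data known, so the shares of all genes are no independent yardstick for them. Of 10 tested genes for glutathione supply, turnover and reduction, 6 rose and 0 fell, and the median log2 value was 1.40. They are Gclm and Gclc, the subunits of the rate-limiting ligase, with log2 fold changes of 2.82 ± 0.07 and 1.53 ± 0.06 (SE), the cystine carrier subunits Slc7a11 (2.30 ± 0.08) and Slc3a2 (0.48 ± 0.06), the synthetase Gss (1.52 ± 0.14) and the reductase Gsr (1.29 ± 0.07). Any overlap of Gss with the annotated gene Gssos2 was not measured here. The 4 that did not pass were Ggct and Oplah of glutathione turnover, and Chac1 and Chac2, whose enzymes break glutathione down. No gene of that list fell at an unadjusted p under 0.05 (0), or with DESeq2 or limma-voom (0 each). Of 8 tested export pumps and carriers, 4 rose and 1 fell, with a median of 0.33. Abcc1, the main exporter of glutathione conjugates, rose to 387 ± 24.2 CPM in MNP samples, against 163 ± 10.2 CPM in controls, and the related pumps Abcc4, Abcc3 and Abcc2 rose 1.89-fold, 1.52-fold and 2.82-fold. Abcg2, a pump for other drugs and porphyrins, averaged 11.98 ± 0.565 CPM in MNP samples and 16.1 ± 1.10 CPM in controls and fell (log2 -0.43 ± 0.11 SE, edgeR adjusted p = 0.0124).

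No tested gene of the steps that trim exported conjugates to mercapturates passed. Of 8 tested genes, 0 rose and 0 fell in edgeR after adjustment, and the median was -0.07. At an unadjusted p under 0.05, 0 were higher and 1, the dipeptidase Dpep2, was lower, and DESeq2 and limma-voom called 0 in either direction. The membrane aminopeptidase Anpep averaged 1035 ± 17.0 CPM in MNP samples and 973 ± 77.6 CPM in controls, and the dipeptidase Cndp2 304 ± 20.8 CPM in MNP samples and 329 ± 36.5 CPM in controls. The gamma-glutamyl transferase Ggt1, which starts this route, had almost no counts, at 0 CPM in each MNP sample and 0.0160 ± 0.0277 CPM in controls. A last list held 14 other tested genes, most of them for proteins tied to glutathione, together with Fah of tyrosine breakdown. Of these, 3 rose and 0 fell, with a median of 0.10, and 0 fell at an unadjusted p under 0.05 or with DESeq2 or limma-voom. Those that rose were Esd, which hydrolyses S-formylglutathione (2.34-fold), the glutaredoxin Glrx (1.25-fold) and Clic4, a chloride channel protein with a transferase fold (1.17-fold). The glyoxalases Glo1 and Hagh, which clear methylglyoxal through glutathione, did not pass (log2 -0.12 ± 0.08 and 0.07 ± 0.14 SE).

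**Figure D4:**
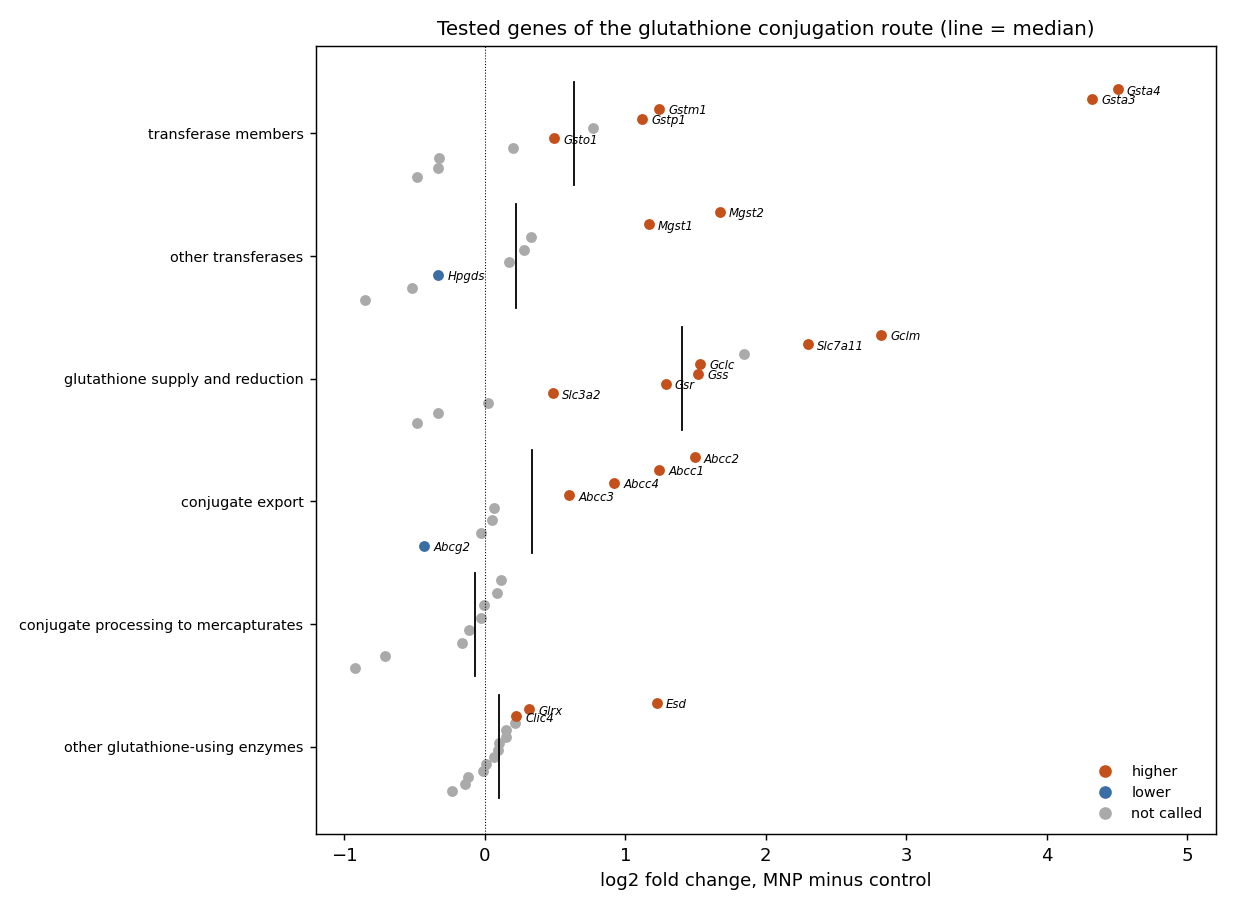
Log2 fold change, MNP minus control (x axis), of each tested gene, in rows for the 10 transferases, other transferases and the steps around conjugation. Orange marks genes that passed as higher, blue as lower and grey those that did not pass, and black lines are medians (0.63, 0.22, 1.40, 0.33, -0.07 and 0.10 from top to bottom).

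Macrophage markers were detected in all 6 libraries, with a summed level of 16840 to 17860 CPM in MNP and 18940 to 19640 CPM in controls over 8 genes. Most of that sum was Lyz2, which averaged 13152 CPM in MNP and 14779 CPM in controls. Mertk, the lowest, averaged 58.2 CPM in MNP and 81.4 CPM in controls. The counts of marker calls stand beside 9.11% higher and 8.35% lower among all tested genes. Of the 8 macrophage genes, 4 fell and the others did not pass. Those that fell were Adgre1, Mertk, Fcgr1 and Lyz2. Of 7 tested neutrophil markers 4 fell, namely S100a9, Mpo, Retnlg and Ngp. All 8 neutrophil markers had a summed level of 120 to 140 CPM in MNP and 160 to 241 CPM in controls, and Ly6g was near 0. Of 6 tested dendritic cell markers 2 fell, Batf3 and Siglech, with sums of 3.39 to 6.09 CPM in MNP and 7.46 to 10.6 CPM in controls. Siglech, with 8, 10 and 5 counts in MNP libraries, cleared the filter on low counts in control libraries alone. Its call is therefore no support for a fall. Fibroblast markers summed to 1.20 to 1.45 CPM in MNP and 1.06 to 2.88 CPM in controls. The 6 mast cell and basophil markers summed to 17.2 to 20.2 CPM in MNP and 11.2 to 13.1 CPM in controls, and 2 of them were tested. Kit rose 1.70-fold, Gata2 averaged 0.790 CPM in MNP and 1.59 CPM in controls and did not pass (log2 -1.003, edgeR adjusted p = 0.182), and Cpa3, Mcpt8, Fcer1a and Ms4a2 each averaged under 1 CPM. Of the endothelial markers, which summed to 110 to 136 CPM in MNP and 106 to 119 CPM in controls and were mostly Vwf, Kdr fell. Cd4, the 1 tested T cell marker, averaged 3.94 CPM in MNP and 17.1 CPM in controls and fell, while Cd3e was at 0 in each library. Erythroid, B cell and adipocyte markers each summed to under 2 CPM in each library, and 0 of them were tested. The part of these cells in the transferase values was not tested. The annotated gene Gm26917 took 1.02% of counts in MNP sample 1 and 0.251% to 0.444% in the other 5 libraries. Without MNP sample 1, Gsta3, Gstm1 and Gsto1 still passed, and Gstp1 did not (edgeR adjusted p = 0.0934). Gsta4 passed too, but it entered the main test through MNP libraries alone, so its call is no support.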

How the data were processed

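RNA of 6 samples was sequenced with the CORALL RNA-seq V2 kit, per the labels' protocols. The authors deposited raw counts for each gene symbol, with a separate file for every sample. Build GRCm39 and the tools GATK, Salmon, STAR and fastp are listed, without roles, per the submitters' processing notes. Annotation, strand setting, molecular identifiers and rounding: not given in the sources used here. From these counts edgeR 4.0.16 (R 4.3.3) was run with TMM factors, its default filter (minimum count 10), leaving 12893 of 40213 genes. MNP was tested against control by quasi-likelihood. Each SE was obtained by dividing the size of the log2 fold change by the root of the F statistic. The steps were tested on simulated data. One count was worth 0.0424 to 0.0483 scaled CPM. Pairs of replicates differed by more than sampling noise (chi-square per degree of freedom of 6.65 to 17.6). Each was counted as 1 sample, but this excess does not show that the replicates were separate cultures or animals. Transcript lengths, exon overlaps and shared sequence came from GENCODE M21 (GRCm38), matched by symbol.

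The members and gene lists were chosen with earlier results of these data known. Named genes are the members, other transferases that were called or averaged at least 1 CPM in a group, and up to 6 called genes of each list. Those named outside this rule were chosen after their values were seen, as were the 5 count ratios. Alternatives were RLE, upper-quartile and library-total scaling, no filter and a stricter one (at least 1 CPM), DESeq2 1.42.0, limma-voom (limma 3.58.1), a replicate block, omission of each library, a fit without mitochondrial genes and the 10 genes with the most counts, and a threshold of 0.01.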

Additional observations from a re-analysis of the deposited data

How the results depend on the processing

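Gsta3, Gstm1 and Gsto1 kept their direction and their call in each alternative in which they were tested. Gsta4 did so too, but it entered the main test through MNP libraries alone, so its calls are no support. Gstp1 kept its direction, and Gstm2, Gstm4, Gstk1, Gstt2 and Gstz1 kept their direction and passed in none. The log2 fold change ran from 4.18 to 4.45 for Gsta3, 4.20 to 4.86 for Gsta4, 1.15 to 1.32 for Gstm1 and 0.40 to 0.53 for Gsto1. Of the 10 members, 5 were higher and 0 lower in most alternatives. The number higher was 4 with the stricter filter, which does not test Gsta4, and 4 at a threshold of 0.01. It was 4 to 5 when each library was left out in turn, because of Gstp1 (log2 fold change 0.88 to 1.47). Among all genes, the 2250 calls became 1272 at a threshold of 0.01 and 1471 to 2245 when 1 library was left out, lowest without MNP sample 2. The cause was not tested. With library totals alone, 28.1% of calls were higher, against 52.2% with TMM, and the same 5 members were higher.

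Samples that share a replicate number showed little common deviation (r = 0.09, 0.03 and -0.02 over genes), and not every sample correlated best with its own number. Such correlations cannot settle whether the samples were paired. With the replicate block, 2686 genes and 5 members were called, against 2250 genes and 5 members without it. The adjusted p of Gstp1 in edgeR was 0.00437 with the block and 0.0227 without. Depth limits Gsta4 in controls, the other alpha genes and Gstt2.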
